A study of Mus musculus with 5 samples.

Results

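The step from day 9 to day 12 of a chondrocyte culture was described here from 2 of the 5 arrays of a time course, the array labelled 9 days in culture and the array labelled 12 days. The cells were primary chondrocytes from the rib cages of E18.5 embryos of FVB mice, an inbred strain, with no genetic change and no added agent that differed between the days. The rib cages were digested with collagenase and trypsin, the cells were passed through a 70 µm strainer and plated on gelatin, and all 5 cultures received ascorbic acid and β-glycerophosphate, a supplement pair commonly used to let matrix form and mineralise. Total RNA was hybridised to Affymetrix expression arrays on days 2, 6, 9, 12 and 15, with 1 array per day. The labels name no replicate culture and no count of embryos, so no difference below has a replicate check, and none has a p-value.

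Chondrocytes build cartilage from a network of type II, IX and XI collagen filled with aggrecan, a large proteoglycan held in place by link proteins and hyaluronan, and the transcription factor SOX9 drives these genes. In the growth plate the cells stop dividing, enlarge, switch to type X collagen and give way to bone. Cells released from a rib cage can include perichondrial and connective tissue cells, so a culture of this kind can also hold cells on the osteoblast or adipocyte path.

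A gene's value is the linear signal of its brightest probe set, a group of short probes for 1 transcript. A floor of 73.1, which 40% of all values on the 5 arrays lie under, replaced every lower signal before log2 differences were taken. Of 18193 annotated genes, 13195 were above the floor on day 9 or day 12, 11229 of them on both days. When a gene was at the floor on 1 of the days its fold is a lower bound, written as "at least". Set against all genes, the cartilage markers ranked lower on day 12: Col2a1, the type II collagen gene, was brighter than 99.5% of genes on day 9 and than 97.2% on day 12, Acan, the aggrecan gene, than 88.2% and 71.1%, and Matn1, a matrilin, than 89.0% and 74.6%. On day 12 Col1a1, of type I collagen, and Ibsp, bone sialoprotein, ranked above Col2a1, each at 99.5%, as did Adipoq, the fat cell hormone adiponectin, at 99.2%. The ratio of 3′ to 5′ probe sets, a sign of RNA quality, was 1.27 on day 9 and 1.23 on day 12 for Actb, and 0.616 and 0.627 for Gapdh.

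Fewer genes differed between days 9 and 12 than between any other neighbouring days of the course. At least 2-fold higher at day 12 were 264 genes (2.00% of the 13195 measured) and at least 2-fold lower were 212 (1.61%), together 3.61%. The other 3 steps had 2280 genes (15.8%) from day 2 to day 6, 1373 (9.92%) from day 6 to day 9, and 1080 (8.03%) from day 12 to day 15. The first of those steps lasted 4 days and the others 3, as this one did. Changes of 4-fold or more numbered 9 higher and 7 lower here, against 64 and 34 in the step after it. For genes over the floor on both days, the middle 50% of log2 differences spanned 0.38, against 0.60 from day 12 to day 15.

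**Figure D1:**
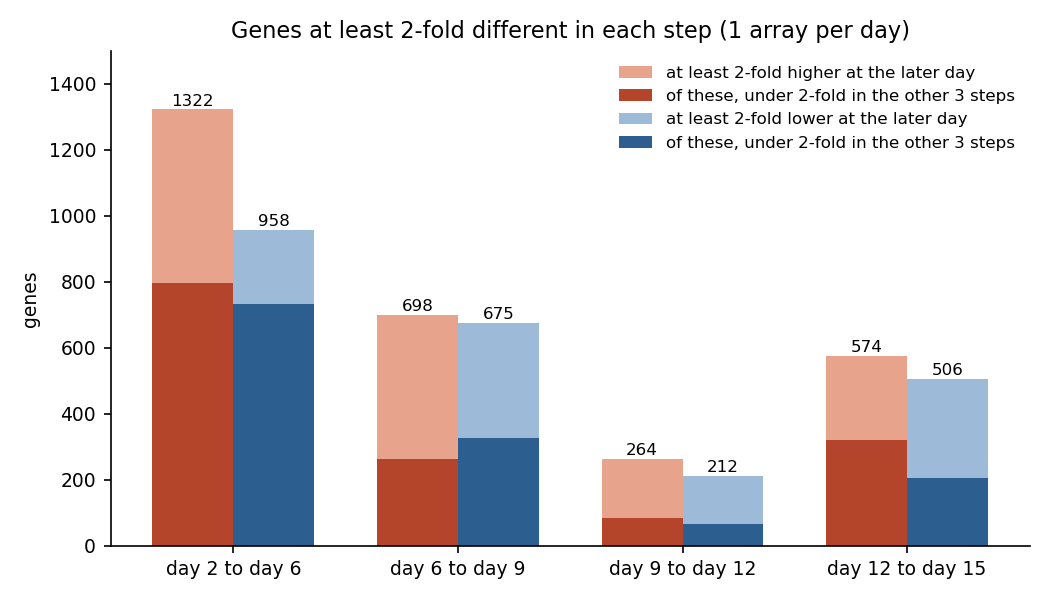
Number of genes at least 2-fold higher (red) or lower (blue) at the later day of each step, with the darker part for genes under 2-fold in the other 3 steps. The step from day 9 to day 12 has the shortest bars, with 264 genes higher and 212 lower.

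The size of a signal set how far a single array could be read. Of 3511 genes whose brighter day lay under 200, 5.47% differed at least 2-fold, against 4.22% of 5265 genes from 200 to 1000 and 1.40% of 4419 genes above 1000. Of the 264 higher genes 103 were at the floor on day 9, and of the 212 lower genes 77 were at the floor on day 12. Where a gene had a second probe set, it gave some check within the same 2 arrays: of 139 genes called by their brightest one, 70.5% had the same direction in the next, and 20.1% were 2-fold there too. With both probe sets at 200 or more the shares were 91.5% and 55.3% of 47 genes, and the SD of a log2 difference from 1 probe set was 0.29. Closest to the 2-fold limit were Ifitm5 and Hdac10, just inside it on the higher side, with Mm2pr and Bcan just outside, and Gprc5a and Xaf1 just inside it on the lower side, with Ahi1 and Rps6ka6 just outside.

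The cartilage matrix genes differed together in this step. Of 7 measured cartilage collagen genes 5 were at least 2-fold lower at day 12 and none was higher, with a median log2 difference of -1.04. Of 17 proteoglycan and linker protein genes 10 were at least 2-fold lower and none 2-fold higher, with a median of -1.37. Over all genes the median was 0.00 when rounded to 2 decimals, and 1.61% were 2-fold lower. In bulk RNA, fewer cells of a type and less RNA per cell cannot be told apart.

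Col2a1 had a signal of 46505 on day 2, 39066 on day 6, 22143 on day 9, 7510 on day 12 and 17566 on day 15. It was 2.95-fold lower at day 12 than at day 9, and day 12 was its lowest day. Type IX collagen sits on the surface of type II fibrils, and its 3 genes were all lower. Col9a3 had 7123 and 6251 on days 2 and 6, 3758 on day 9, 978 on day 12 and 1048 on day 15, 3.84-fold lower in the step. Col9a1 had 22717, 29589 and 19252 on days 2, 6 and 9 and then 8582 and 8559 on days 12 and 15, 2.24-fold lower. For both genes days 12 and 15 lay below every earlier day, and their second probe sets had log2 differences of -2.38 and -1.65. Col9a2 was 2.06-fold lower and Col11a2, a chain of type XI collagen, 2.02-fold lower. Col11a1, with 14820 on day 9 and 9928 on day 12, and Col27a1, with 1492 and 983, stayed within 2-fold.

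Acan had already dropped before this step. Its signal was 19492 on day 2, 11052 on day 6, 2092 on day 9, 723 on day 12 and 2328 on day 15, so that day 12 was its lowest day and day 15 was back near day 9. Hapln1, the link protein that fixes aggrecan to hyaluronan, had 8266, 5298 and 4078 on days 2, 6 and 9, 1097 on day 12 and 1798 on day 15, 3.72-fold lower in the step. Its 3 other probe sets had log2 differences from -1.81 to -1.59. Matn3, a matrilin that bridges collagen and proteoglycan, went the other way until day 9, with 2664, 3752 and 4750, and then had 1168 on day 12 and 2031 on day 15, 4.07-fold lower in the step. Matn1 also had its highest signal on day 9, 2255 against 874 on day 12. Epyc, a small proteoglycan of growth cartilage, had 14566, 14787, 11098, 4158 and 2902 over the 5 days, 2.67-fold lower in the step. Scrg1 was 3.40-fold lower, Ucma, a small secreted cartilage protein, 3.01-fold, Snorc 2.81-fold, Cytl1 2.66-fold and Cnmd, the chondromodulin gene, 2.53-fold. For 5 of these 10 lower genes day 9 was the highest of the 5 days, and for 3 day 12 was the lowest. For the 5 lower cartilage collagen genes those counts were 0 and 4. Against day 2, the median log2 difference of the 20 proteoglycan and linker genes with a probe set was 0.79 on day 9 and -0.31 on day 12.

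The other 7 measured members of the proteoglycan and linker list stayed within 2-fold. Susd5 (2979 on day 9 and 2091 on day 12), Matn4 (3158 and 2436), Hspg2, the perlecan gene (622 and 485), and Prg4, the lubricin gene (123 and 106), were lower at day 12. Comp (7901 and 9864), Matn2 (1453 and 1889) and Vcan, the versican gene (1827 and 2447), were higher. None of 10 small leucine-rich proteoglycan genes was 2-fold different, with a median of 0.05: Lum had 20806 and 21897, and Bgn 26720 and 31844.

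The regulators of the chondrocyte differed less than the matrix genes. Sox9 had 1652 on day 9 and 1157 on day 12, a log2 difference of -0.51, Sox6 had 918 and 547, and Sox5 802 and 622. Of 10 measured transcription factor and receptor genes only Zfp219, a cofactor of SOX9, was 2-fold lower, with 479 on day 9 and 169 on day 12. Fgfr3, a growth factor receptor of growth cartilage, had 1382 and 878. The median of the 10 was -0.69, with 9 of 10 below 0.

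**Figure D2:**
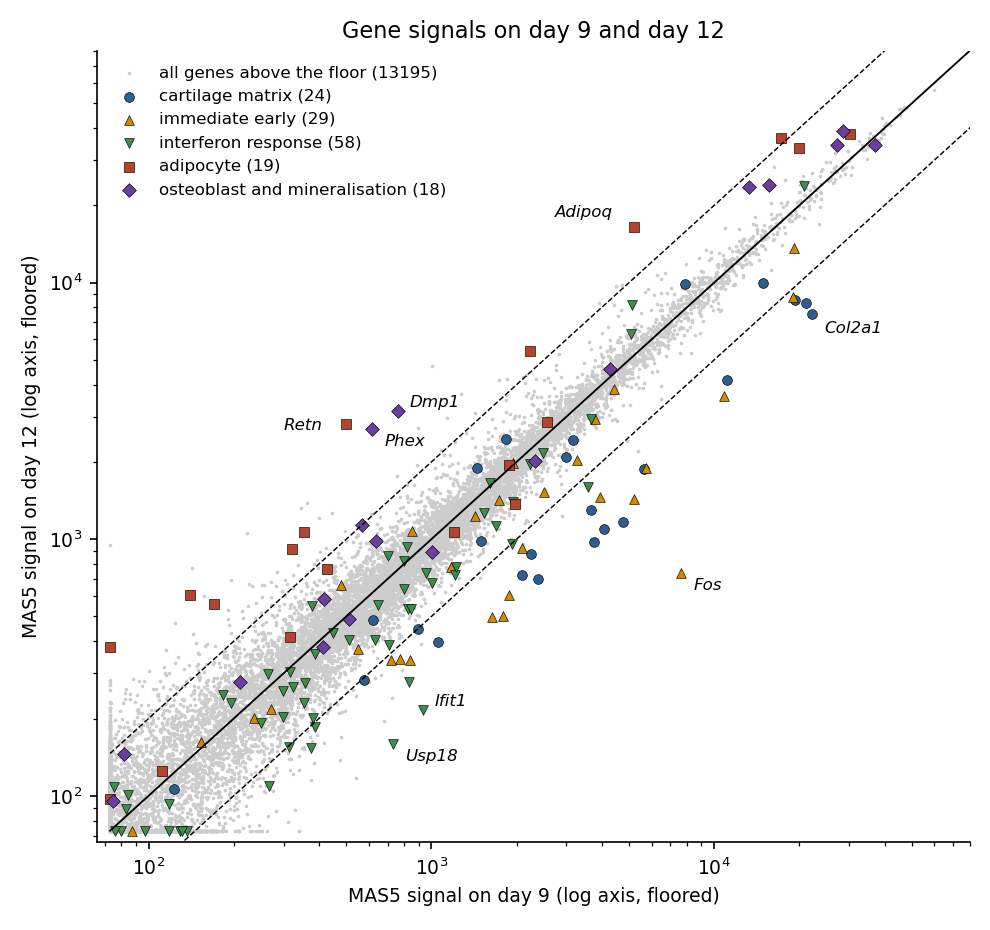
Signal of every measured gene on day 9 (x) and day 12 (y), both on log axes and floored at 73.1, with the solid line for equal signals and dashed lines at 2-fold. The cartilage matrix, immediate early and interferon genes at least 2-fold different all lie below the lower dashed line, and the adipocyte and bone genes above the upper one.

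Immediate early genes, which cells switch on within minutes of a stimulus and which code mostly for short-lived transcription factors and signal brakes, were the other bright group that was lower at day 12. Of 29 measured 13 were at least 2-fold lower and none was 2-fold higher, with a median of -0.69, against 1.61% of all genes 2-fold lower. Fos, a subunit of the AP-1 factor, had 454 on day 2, 539 on day 6, 7631 on day 9, 739 on day 12 and 508 on day 15. It was 10.3-fold lower at day 12, the largest difference of any gene over the floor on both days. Day 9 alone was high, and the other 4 days lay between 454 and 739.

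Egr1, a zinc finger factor, had 3346 and 2976 on days 2 and 6, 10808 on day 9, 3614 on day 12 and 2269 on day 15. Ier2 had 1569, 1238, 5193, 1433 and 905, and Nr4a1, an orphan nuclear receptor, had 232, 283, 1789, 501 and 290. All 3 genes stood on day 12 within 2-fold of their values on day 6. Zfp36, which speeds the decay of other short-lived messages, was 3.09-fold lower, Egr2 3.29-fold, Egr3 2.68-fold and Junb 2.48-fold. For 11 of the 13 genes day 9 was the highest of all 5 days. Dusp1, a phosphatase that switches off MAP kinases, and Ier3 were the others: Dusp1 had 7230, 3754, 5735, 1894 and 1903, and Ier3 2743, 1637, 2083, 923 and 5456. Jun, with 1731 on day 9 and 1419 on day 12, and Jund, with 1949 and 1985, were not 2-fold different, nor was Klf4, with 856 and 1076.

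Genes induced by interferon, the antiviral cytokine, were lower too, but as a smaller share of a larger list. Of 58 measured 9 were at least 2-fold lower and none 2-fold higher, against 1.61% of all genes lower. Below 0 were 44 of the 58, with a median of -0.36, against 6650 of all 13195 genes. All 9 had their highest signal on day 9. Usp18, which damps the interferon receptor, had 106 on day 2, below the floor on day 6, 728 on day 9, 159 on day 12 and below the floor on day 15, 4.59-fold lower in the step. Ifit1, an antiviral RNA-binding protein, was below the floor on days 2 and 6, had 930 on day 9 and 216 on day 12, and was below the floor again on day 15, 4.30-fold lower in the step. Ifit3 had 133, 178, 836, 279 and 138. Rtp4 had 95.5, 358, 3563, 1594 and 545. Oasl2 and Parp14 were 2.45-fold and 2.43-fold lower, and Irgm2, Herc6 and Xaf1 between 2.01-fold and 2.09-fold. The second probe set of Xaf1 did not follow, with a log2 difference of 0.13. The largest difference on the higher side was that of H2-D1, an antigen-presenting molecule, with 5131 on day 9 and 8205 on day 12, within 2-fold. The summed signal of the 64 interferon genes with a probe set differed little, with 72945 on day 9 and 68473 on day 12.

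The promoters of interferon-induced genes carry a known element, the interferon-stimulated response element, written here as GAAA, any 2 bases and GAAA. It was sought on both strands of RefSeq promoters (build GRCm38.p6, 250 bases before and 50 after the transcription start). Of the 47 interferon genes with a promoter there, 19 held it, 40.4%, against 3.55% of measured genes and 3.99% of all genes with a promoter. Of the 9 genes 2-fold lower, 6 had a promoter there. The 3 promoters with a match are given 5′ to 3′ with the element or its reverse complement in capitals. They are Ifit1 at chr19:34640639-34640938 (plus strand), Ifit3 at chr19:34583279-34583578 (plus strand) and Irgm2 at chr11:58214727-58215026 (plus strand).
Ifit1: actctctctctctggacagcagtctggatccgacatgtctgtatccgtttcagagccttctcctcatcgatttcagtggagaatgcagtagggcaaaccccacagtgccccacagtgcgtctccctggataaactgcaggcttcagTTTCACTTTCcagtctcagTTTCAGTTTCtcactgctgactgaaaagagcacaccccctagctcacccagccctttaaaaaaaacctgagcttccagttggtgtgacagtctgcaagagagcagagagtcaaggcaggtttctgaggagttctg
Ifit3: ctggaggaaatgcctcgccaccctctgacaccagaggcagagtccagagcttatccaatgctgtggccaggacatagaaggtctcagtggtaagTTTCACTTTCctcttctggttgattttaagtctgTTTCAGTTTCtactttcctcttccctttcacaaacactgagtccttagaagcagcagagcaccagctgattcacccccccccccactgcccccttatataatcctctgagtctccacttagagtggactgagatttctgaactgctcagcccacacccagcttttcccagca
Irgm2: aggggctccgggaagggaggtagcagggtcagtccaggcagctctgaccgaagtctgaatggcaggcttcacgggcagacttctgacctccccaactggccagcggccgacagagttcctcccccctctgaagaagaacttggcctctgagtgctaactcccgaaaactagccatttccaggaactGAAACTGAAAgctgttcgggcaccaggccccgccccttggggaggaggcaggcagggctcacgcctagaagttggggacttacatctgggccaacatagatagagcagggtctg

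Ifit1 and Ifit3, which lie close to each other on chromosome 19, each held 2 matches, the first starting 104 and 156 bases before the transcription start, and Irgm2 held 1. Oasl2, Xaf1 and Herc6 held none within this window.

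**Figure D3:**
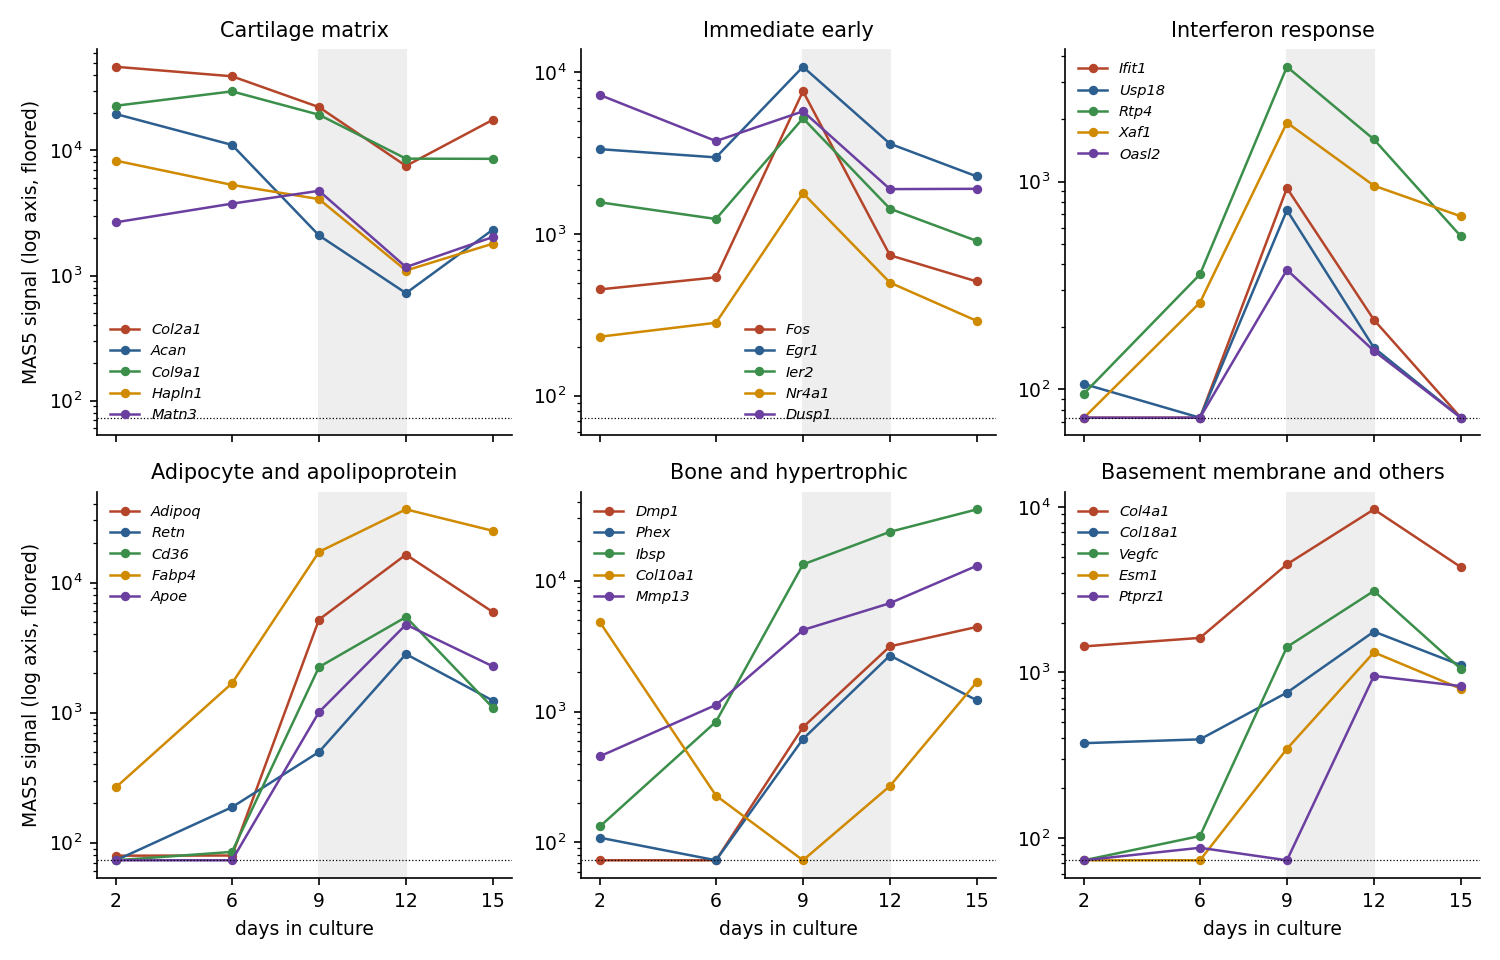
Signals over the 5 days (log axis, floored at 73.1, dotted line; 1 array per day) for 5 genes of each of 6 groups, with the step from day 9 to day 12 shaded. The interferon genes and 4 of the 5 immediate early genes are highest on day 9, while Dusp1 is highest on day 2. In the adipocyte and apolipoprotein group, 4 of the 5 genes drop again by day 15 to less than 50% of their day 12 signal.

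The adipocyte list had the most members at least 2-fold higher at day 12 of all the lists. Of 19 measured 9 were at least 2-fold higher and none 2-fold lower, with a median of 0.85, against 2.00% of all genes higher. For all 9 day 12 was the highest of the 5 days. Adipoq, the hormone adiponectin made by fat cells, had 79.3 and 79.6 on days 2 and 6, 5191 on day 9, 16395 on day 12 and 5924 on day 15, 3.16-fold higher in the step. Retn, the adipocyte hormone resistin in mice, had 498 on day 9, 2816 on day 12 and 1234 on day 15, 5.66-fold higher. Cidec, a protein of the lipid droplet surface, was below the floor on days 2, 6 and 9, had 378 on day 12 and 98.5 on day 15, at least 5.17-fold higher.

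Among genes that handle lipid, Cd36, a fatty acid transporter, had 2239 on day 9, 5430 on day 12 and 1087 on day 15. Lipe, the hormone-sensitive lipase, had 171, 559 and 190 on the same days, though its second probe set had a log2 difference of only 0.16. Fabp4, the fatty acid binding protein of adipocytes, had 17222, 36538 and 24981. Adig was 4.33-fold higher, Thrsp 3.02-fold and Gpd1, which supplies the glycerol backbone, 2.86-fold. Of the 31 genes of lipid synthesis, storage and breakdown only Agpat2, an enzyme of triglyceride assembly (898 on day 9 and 2701 on day 12), and Pnpla2, the first lipase of triglyceride breakdown (272 and 679), were 2-fold higher. The second probe set of Pnpla2 had a log2 difference of 0.27.

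Pparg, Cebpa and Cebpd, transcription factors of fat cell formation, stayed within 2-fold. Pparg had 2567 on day 9 and 2873 on day 12, Cebpa 1883 and 1943, and Cebpd 1972 and 1365. Plin4, a lipid droplet protein, had 1199 and 1062. Lep and Cidea were at the floor on both days. The summed signal of the 21 adipocyte genes with a probe set was 18265 on day 6, 84744 on day 9, 144883 on day 12 and 70163 on day 15. The part of these cells in the lower cartilage signals of day 12 was not tested.

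Apoe and Apoc1, 2 apolipoprotein genes, were among the 15 highest genes of the step. Apoe was below the floor on days 2 and 6, had 1008 on day 9, 4749 on day 12 and 2265 on day 15, 4.71-fold higher. Apoc1 had 158, 127, 222, 1060 and 633, 4.78-fold higher. Both lie on chromosome 7.

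Of 18 measured osteoblast and mineralisation genes 3 were 2-fold higher, against 2.00% of all genes, and none was 2-fold lower. Above 0 were 13 of the 18, with a median of 0.42. Dmp1, a matrix phosphoprotein of cells embedded in bone, was below the floor on days 2 and 6, had 759 on day 9, 3148 on day 12 and 4432 on day 15, 4.15-fold higher in the step. Phex, a surface enzyme of the same cells that helps control phosphate, had 617 on day 9, 2680 on day 12 and 1218 on day 15, 4.34-fold higher. Other probe sets of both genes were also at least 2-fold higher, with log2 differences from 1.98 to 2.02 for Dmp1 and of 2.82 for Phex. Ifitm5, a membrane protein of osteoblasts, had 567 and 1134, which is 2.00-fold and at the limit.

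Several bright bone genes were higher by less than 2-fold. Ibsp had 13297 on day 9, 23593 on day 12 and 35026 on day 15. Col1a1 had 15594 and 23947 on days 9 and 12, and Col1a2 28480 and 38789. Sp7, the transcription factor osterix, had 417 and 586, and Alpl, the alkaline phosphatase that frees phosphate for mineral, 637 and 985. Dlx5, with 511 and 490, and Mgp, an inhibitor of mineralisation, with 37045 and 34375, were level.

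Genes of hypertrophic chondrocytes had 3 of 12 members 2-fold higher, against 2.00% of all genes, none lower, and a median of 0.65. Col10a1, the type X collagen that marks this stage, had 4800 on day 2, 228 on day 6, a signal below the floor on day 9, 270 on day 12 and 1686 on day 15, at least 3.69-fold higher in the step. Rarres2, the chemerin gene, had 1736 on day 9 and 4172 on day 12, and Cd200, a surface glycoprotein, 425 and 921. Mmp13, the collagenase that opens cartilage to bone, had 4198 on day 9, 6726 on day 12 and 12995 on day 15, within 2-fold in this step. Vegfa, the vessel growth factor, had 452 on day 9, 517 on day 12 and 1552 on day 15.

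**Figure D4:**
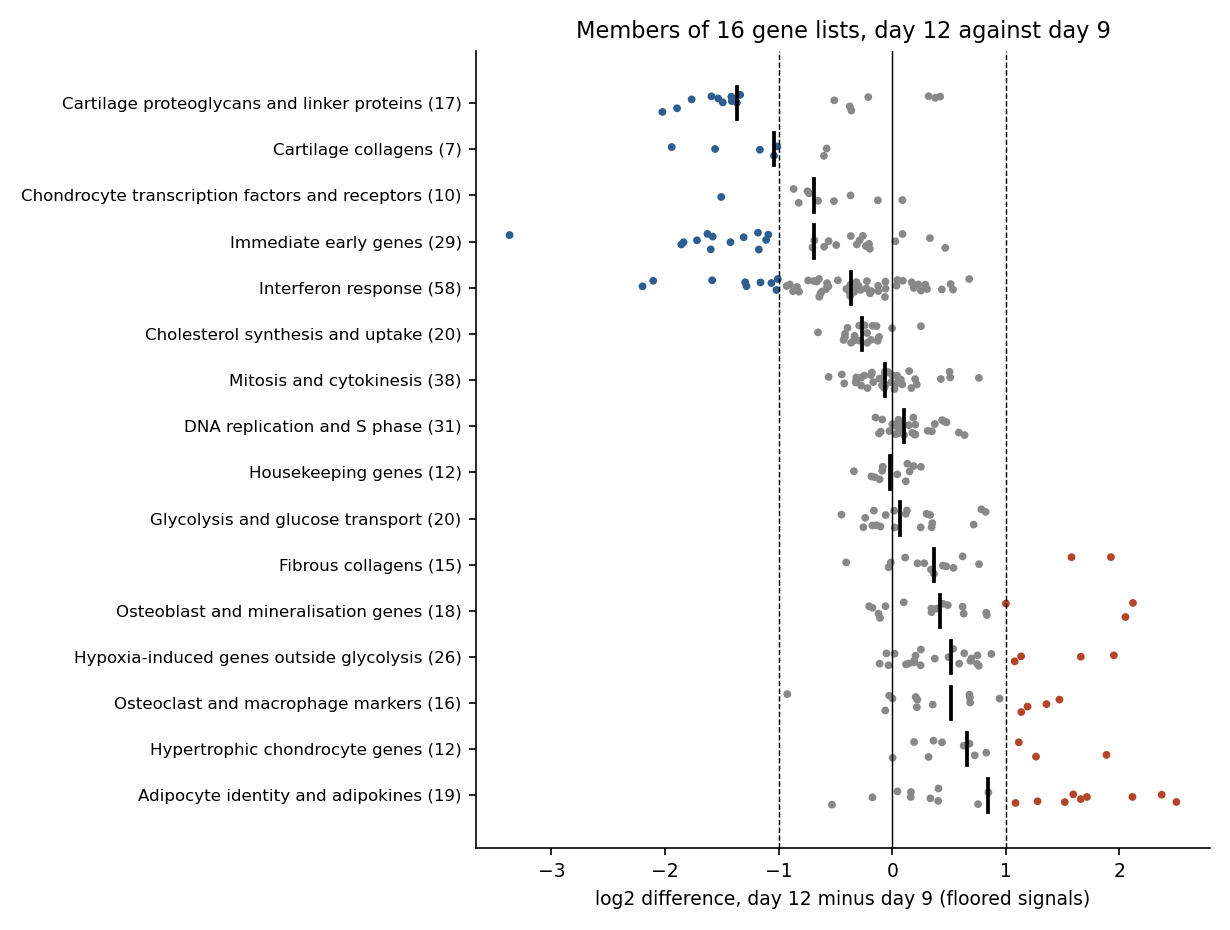
Log2 difference of day 12 minus day 9 for each measured member of 16 gene lists (number measured in parentheses), with bars at the list medians and dashed lines at 2-fold; coloured points passed 2-fold. The medians run from -1.37 for the cartilage proteoglycans to 0.85 for the adipocyte genes.

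Collagens of fibrous tissue and basement membranes gave a mixed picture. Of 15 fibrous collagen genes 2 were 2-fold higher, against 2.00% of all genes: Col5a3 (143 on day 9, 427 on day 12) and Col15a1 (124 and 472), and the median was 0.37. Col4a1 and Col4a2, chains of the type IV collagen of basement membranes, are in no list and were picked after their values were seen. Col4a1 had 1434, 1615, 4496, 9657 and 4320 over the 5 days, and Col4a2 1174, 904, 1848, 4222 and 1849. By their brightest probe sets both were more than 2-fold above all other days on day 12. The second probe set of Col4a1 had a log2 difference of 0.62 in the step, under 2-fold. Col18a1, also of basement membranes and also picked afterwards, had 373, 393, 754, 1763 and 1103. Mfap2 and Mfap5, microfibril proteins, were just under 2-fold, at 1.98-fold and 1.99-fold, and none of 16 elastic fibre genes passed 2-fold. Matrix proteases had 1 of 24 genes higher, Mmp9 (below the floor on day 9, 187 on day 12), and 1 lower, Mmp11 (275 and 104).

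The hypoxia list was shifted with few large members. Of 26 measured genes outside glycolysis 23 were higher at day 12, with a median of 0.52, but only 4 passed 2-fold, against 2.00% of all genes, and all 4 were below the floor on day 9. Ndufa4l2, a mitochondrial protein, had 283 on day 12 and 9013 on day 15. Pgf, placental growth factor, had 231 on day 12 but was below the floor on day 15. Bhlhe41 had 160 on day 12 and 209 on day 15, and Egln3, an oxygen-sensing enzyme that marks HIF for decay, 154 and 2427. Brighter members stayed within 2-fold in this step: Bnip3 had 2196 on day 9, 3724 on day 12 and 22077 on day 15, Higd1a 4550, 7372 and 21661, and Adm 1594, 1557 and 5696. None of 20 glycolysis genes passed 2-fold, with a median of 0.07. The nearest were Pfkfb3 (317 and 561) and Hk2 (457 and 787).

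The core of the hypoxia response element, ACGTG, stood in the promoters of 17 of 22 genes of this list in the RefSeq table, 77.3%. The share was 28.6% of measured genes and 21.8% of all genes with a promoter. It is shown in capitals for the 2 of the 4 genes with a match, Egln3 at chr12:54203825-54204124 (minus strand) and Bhlhe41 at chr6:145865371-145865670 (minus strand). In Bhlhe41 it is part of the palindrome CACGTG, an E box, so it matched on both strands.
Egln3: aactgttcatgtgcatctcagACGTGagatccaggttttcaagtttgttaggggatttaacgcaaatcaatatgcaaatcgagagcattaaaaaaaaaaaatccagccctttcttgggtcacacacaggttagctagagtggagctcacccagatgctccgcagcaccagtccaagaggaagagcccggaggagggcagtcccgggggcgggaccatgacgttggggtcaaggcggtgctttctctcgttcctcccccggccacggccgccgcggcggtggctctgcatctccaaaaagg
Bhlhe41: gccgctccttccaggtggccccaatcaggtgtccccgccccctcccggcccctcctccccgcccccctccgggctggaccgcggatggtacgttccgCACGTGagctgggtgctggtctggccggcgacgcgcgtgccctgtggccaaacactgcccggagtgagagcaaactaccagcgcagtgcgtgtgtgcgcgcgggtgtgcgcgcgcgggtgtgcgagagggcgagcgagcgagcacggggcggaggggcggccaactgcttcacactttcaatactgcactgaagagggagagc

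Pgf had a promoter in the table with no match in this window. For the adipocyte genes the PPAR element, AGGTCA in 2 copies with 1 base between, was in 0 of 12 promoters. This exact element was in only 0.0565% of measured genes, so the count of 0 does not set the adipocyte genes apart. For the 10 immediate early genes 2-fold lower and in the table, the cAMP response element TGACGTCA was in 1, that of Dusp1, against 3.29% of measured genes.

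Several programmes that divide or feed a cell had no member past 2-fold. None of 31 DNA replication genes and none of 38 mitosis genes differed 2-fold, with medians of 0.10 and -0.06. The same held for 24 ribosomal protein genes (median -0.04), 37 ribosome biogenesis genes (-0.10), 39 genes of the respiratory chain and citric acid cycle (0.09), 25 lysosome genes (-0.02) and 25 genes of protein folding in the endoplasmic reticulum (0.07). The 20 cholesterol genes were all within 2-fold but 19 were lower, with a median of -0.27. None of the lists for BMP, TGF-β, hedgehog, insulin-like growth factor and FGF or EGF genes had a member past 2-fold.

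Other secreted signals had single members past the limit. Over all genes 2.00% were 2-fold higher and 1.61% lower. Of 23 Wnt pathway genes 3 were higher: Dkk1, an antagonist (191 on day 9, 488 on day 12), Sfrp4, a decoy receptor (240 and 562), and Wnt11 (below the floor and 155). In the same list 1 was lower, Sfrp5 (152 and below the floor). Cxcl12, a chemokine of stromal cells, had 12703 and 23390, within 2-fold. Of 29 measured chemokine and inflammatory genes 2 were 2-fold higher, Hp, haptoglobin (4717 and 9781), and Il1b (99.4 and 207), and none was 2-fold lower. Of 13 complement genes 3 were higher: Clu (2155 and 4349), Serping1, the C1 inhibitor (891 and 1939), and Cfi (73.2 and 161).

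Marker lists of other cell types differed in brightness. Beside each list stand the shares over all genes, 2.00% 2-fold higher and 1.61% lower. Of 16 measured macrophage and osteoclast genes 4 were 2-fold higher: Lyz1 (190 and 528), Adgre1, Cd14 and Mmp9, which is also in the matrix protease list. The summed signal of the list was 2047 on day 9 and 3439 on day 12, while Ptprc, Itgam, Tyrobp and C1qa were at the floor on both days. Of the 19 endothelial genes 12 were at the floor on both days, Pecam1 and Cdh5 among them, and Erg (133 and 313) was the 1 gene past 2-fold, with a summed signal of 1272 and 1496. Skeletal muscle genes had 15 of 21 members at the floor, with Acta1 and Mylpf higher and Tnnt3 lower, and a sum of 1820 and 2052. The smooth muscle and pericyte list was bright, with a sum of 46698 and 61825, of which Acta2 gave 22126 and 26622, but 5 of its 17 genes, Myh11 among them, were at the floor on both days and only Cnn1 passed 2-fold (172 and 385). Schwann cell and glial genes had Mal and Ngfr higher and Ncmap and Egr2 lower, with a sum of 11803 and 9025. Their part in the matrix and lipid results was not tested.

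Genes that differed in this step and under 2-fold in the other 3 steps numbered 84 higher (0.538% of 15624 genes above the floor on any day) and 67 lower (0.429%). The corresponding counts were 796 (5.09%) and 733 (4.69%) from day 2 to day 6, 264 (1.69%) and 325 (2.08%) from day 6 to day 9, and 320 (2.05%) and 204 (1.31%) from day 12 to day 15. Most of the 84 were dim: 41 reached 200 on the brighter day and 5 passed 1000, and 42 and 8 did so among the 67 lower genes. The lists held 11 of the 84 and 8 of the 67, against 44 of all 264 higher genes and 43 of all 212 lower ones. Their share of all annotated genes was not counted. Bright genes 2-fold lower in this step alone included Col9a1, Epyc, Dusp1, Matn3, Hapln1, Col9a3 and C1qtnf3. C1qtnf3, an adiponectin-related protein of cartilage, had 9335, 9235, 5358, 2197 and 4316 over the 5 days. Genes 2-fold higher in this step alone were Clu, Col18a1, Apoc1, Ptprz1, Cyp2f2 and Pnpla2, among others. The rule leaves room for smaller changes in other steps. From day 6 to day 9 the log2 difference was 0.93 for Clu, 0.94 for Col18a1, 0.81 for Apoc1 and 0.75 for Cyp2f2, but -0.25 for Ptprz1. On the lower side it was -0.79 for C1qtnf3 and -0.73 for Col9a3, but 0.34 for Matn3 and 0.61 for Dusp1.

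A stricter rule asks for a level that begins or ends at day 12 and lasts to day 15. Days 12 and 15 were both at least 2-fold above the highest of days 2, 6 and 9 for 33 genes (0.211%), and both at least 2-fold below the lowest of them for 16 (0.102%). Split in the same way 1 array earlier, after day 6, the counts were 268 (1.72%) and 93 (0.595%). Of the 33 genes 23, and of the 16 genes 10, were also 2-fold different in this step alone. The largest start was that of Ptprz1, a receptor phosphatase of neural and skeletal cells. It was below the floor on days 2 and 9, had 87.0 on day 6, 951 on day 12 and 826 on day 15, at least 13.0-fold higher, and its second probe set had a log2 difference of 2.83.

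Others among the 33 were already on their way by day 9. Esm1, a proteoglycan secreted by vessel cells among others, had 345 on day 9, 1321 on day 12 and 795 on day 15 after 2 days below the floor, and Wfdc21 had 363, 1377 and 2105. Dmp1, Apoe, Retn, Adig, Cd200 and Serping1 belong here too. Col5a3 and Col13a1, a membrane collagen (115 on day 9, 301 on day 12, 282 on day 15), held about the same level on both later days.

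Cartilage genes made up 4 of the 16 lower on both later days: Col9a1, Col9a3, Hapln1 and Epyc. They stayed well above the floor, with 8582, 978, 1097 and 4158 on day 12. Scin, an actin-severing protein, had 1331, 1638, 542, 118 and 266, 4.61-fold lower in the step. Slc35d1, a transporter of the nucleotide sugars used for chondroitin sulphate, had 1476, 689, 475, 137 and 210, though its second probe set had a log2 difference of -0.27. Ncmap had 3402, 2524, 786, 309 and 272, Meltf 2805, 1680, 723, 241 and 232, and Sim2, a transcription factor, 1864, 1352, 602, 277 and 152. These 3 had been going down before day 9. Zap70, a kinase best known from T cells, was level at 335, 372 and 340 and then below the floor on days 12 and 15, at least 4.65-fold lower.

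**Figure D5:**
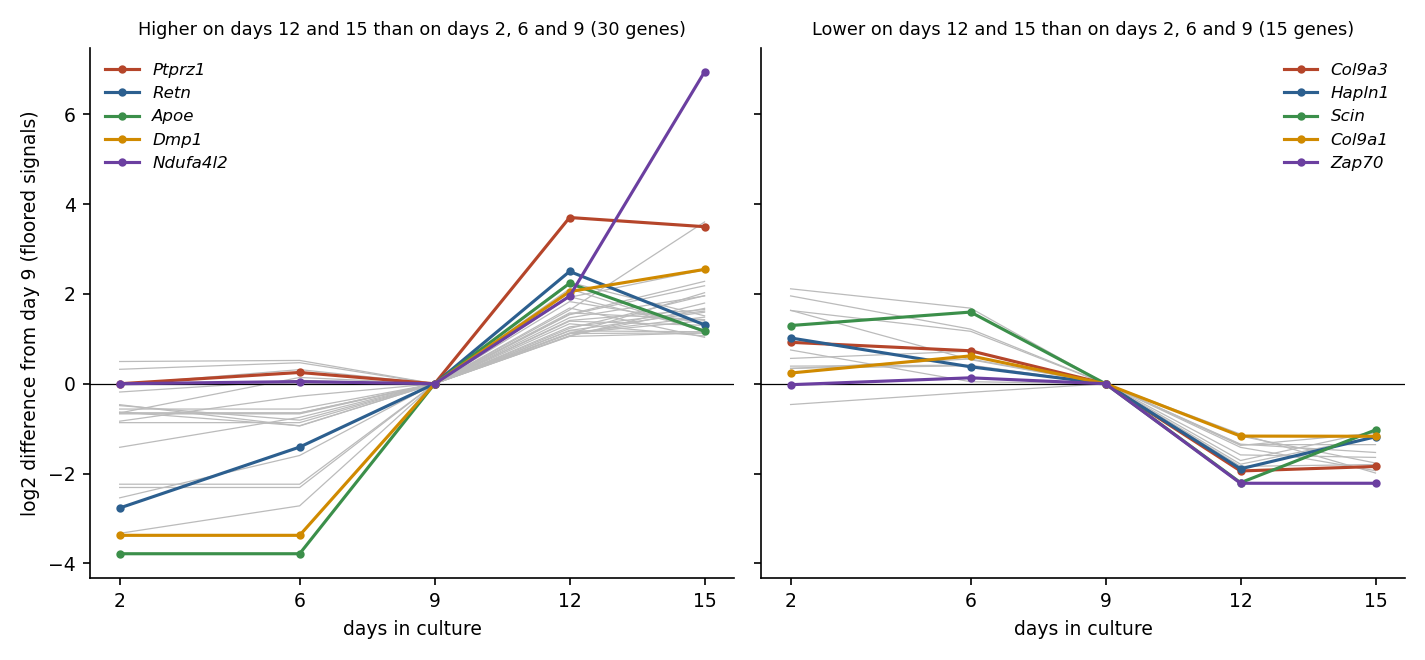
Log2 difference from day 9 (floored signals, 1 array per day) of the genes with a standard symbol whose days 12 and 15 were both at least 2-fold above (30 of 33 genes) or below (15 of 16 genes) all earlier days; grey lines are single genes. Dmp1, Apoe and Retn were already higher on day 9 than on day 6, while Ptprz1 and Zap70 were near level until day 9.

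Some genes stood out on day 12 alone. A peak at least 2-fold above all 4 other days was found for 62 genes on day 12 (0.397%), against 125 on day 6 (0.800%) and 32 on day 9 (0.205%). A trough was found for 20 genes on day 12 (0.128%), against 41 on day 6 (0.262%) and 12 on day 9 (0.0768%). The 14 peak genes above 1000 on day 12 included Adipoq, Col4a1, Cd36, Apoe, Col4a2, Vegfc, Retn, Agpat2 and Phex. Vegfc, a growth factor of lymphatic vessels, had 37.7, 102, 1422, 3104 and 1049 over the 5 days, and its second probe set had a log2 difference of 1.08. Hgf, hepatocyte growth factor, had 338 on day 9, 791 on day 12 and 354 on day 15. The other probe sets of Hgf had log2 differences of 0.55 and 0.87, under 2-fold. Mrap, a partner of the melanocortin receptor that fat cells make, had 401, 1213 and 487 on those days, and Cd1d1, a lipid-presenting protein, 1132, 2957 and 859. Col2a1 and Acan were among the 20 troughs. Eef1a2, an elongation factor, had 374 on day 9, 115 on day 12 and 284 on day 15, and Moxd1 353, 152 and 576.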

How the data were processed

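RNA from 5 cultures was measured on Affymetrix expression arrays, 1 per day. The authors deposited linear signal intensities, and the submitters' processing notes name MAS5 as the tool; the trimmed mean (2% off each end) was 500.003 on every array. Precision is limited by the number of arrays. Of 45101 probe sets, 34945 had 1 gene symbol, 932 several, 9160 none and 64 were controls; 34741 symbols were updated through RefSeq, and each gene took the probe set of highest mean signal. Values under a floor of 73.1 (40th percentile over all arrays) were raised to the floor, and log2 differences were taken with pandas 2.3.3, numpy 2.4.6 and Python 3.11.15, with 2-fold as the limit. Promoters came from RefSeq.

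The genes and lists were chosen with earlier results of these data known. Named were the 15 highest and lowest genes above the floor on both days, the 6 largest bounds each way, the 6 largest of each time class, 4 of each list and well-known genes. Others named were chosen after their values were seen.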

Additional observations from a re-analysis of the deposited data

How the results depend on the processing

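No paired analysis was possible because each day has 1 array. Quantile normalization and scaling to a common median moved no count by over 1.5 times. With the floor at the 20th percentile 1365 genes were 2-fold higher and 1238 lower, 225 and 210 of them in this step alone, with 113 starts, 100 stops, 206 peaks and 203 troughs, and 4901, 3881 and 3364 genes in the other 3 steps. With the floor at the 60th percentile these were 76 and 68, 24 and 23, 15 starts, 31 peaks, 2 troughs, and 1102, 582 and 510. Without genes under the 70th percentile they were 51 and 55, 12 and 15, 13 starts, 14 peaks, 5 troughs, and 1002, 507 and 376; the median of the immediate early genes was then -1.09 and that of the osteoclast and macrophage markers -0.062, the other side of 0. A pseudocount in place of the floor gave 105 genes lower in this step alone, 16 starts, 10 stops, 27 peaks and 13 troughs. The mean over probe sets gave 171 genes higher, 53 and 43 in this step alone, 41 peaks and 11 troughs. Without genes under the median 38 genes peaked. The floors and filters change which dim genes count by construction; for the pseudocount and the mean over probe sets the cause was not tested. This step had the fewest genes under all 8 alternatives. The share of calls that were higher lay between 48.1% and 56.0%.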

Other observations

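Some of the largest differences of the step belong to none of the gene lists. Chchd10, a mitochondrial protein, had 405 and 308 on days 2 and 6, 142 on day 9, 773 on day 12 and 1058 on day 15, 5.43-fold higher, and its second probe set had a log2 difference of 1.19. Mfsd12, a lysosomal transporter, had 157 on day 9 and 599 on day 12, 3.82-fold higher, with 259 on day 6. Rhebl1 had 87.9 on day 9 and 284 on day 12, 3.23-fold higher, while its second probe set had a log2 difference of -1.24. Sucnr1, the succinate receptor, was below the floor on days 9 and 15 and had 276 on day 12, and Esr1, the estrogen receptor, was below the floor on day 9 and had 258 on day 12, with a second probe set at 0.64.

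On the lower side, Arc, an activity-regulated gene outside the immediate early list, had 329 on day 9 and 87.6 on day 12 and was below the floor on days 6 and 15. Rtl3 had 730 on day 6, 679 on day 9, 195 on day 12 and 607 on day 15. Fam124b had 312 on day 9 and 78.8 on day 12. Ddx60, an antiviral helicase, had 252 on day 9 and was below the floor on days 2, 6, 12 and 15. Utf1 had 341 on day 9 and a signal below the floor on day 12, at least 4.66-fold lower, and its second probe set had a log2 difference of 0.68.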
